A study of Coccomyxa subellipsoidea C-169 with 6 samples.

Results

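The genes described here are 59 of the 9490 genes counted in the Antarctic green alga Coccomyxa subellipsoidea C-169, which grows as single cells. They are the genes whose product name contains "ribosomal protein" or "ribosomal subunit protein" and does not mention the cytosolic 80S, 60S or 40S particles, after enzymes, kinases, biogenesis factors and rRNA names were left out. Messenger RNA was profiled by RNA-seq in 6 libraries of stationary-phase cultures collected 3 hours before darkness. One group of 3 libraries came from wild type (WT) and the other group of 3 from cultures labelled as overexpressing CsubMADS1, a MADS-box transcription factor, each group being 3 biological replicates per the labels. The sources used here give neither the promoter of the transgene nor the number of transformed lines, so an effect of 1 line and an effect of the labelled gene cannot be told apart.

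A plant or algal cell makes proteins on separate sets of ribosomes in the cytosol, the plastid and the mitochondrion. Plastid ribosomes descend from those of cyanobacteria and are made of a 50S large and a 30S small subunit, with proteins numbered L and S after the bacterial ones. Many of their protein genes have moved to the nucleus, so the products are made in the cytosol and imported. Plastid ribosomes make core subunits of the photosystems and the large subunit of Rubisco, and mitochondrial ribosomes make subunits of the respiratory chain.

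The gene taken to be the one behind the label was examined first, chosen by its product name alone. COCSUDRAFT_67545, the 1 gene with a MADS-box product name, had 95.3, 80.2 and 84.9 counts-per-million (CPM, scaled by edgeR's TMM factors) in WT and 68.4, 58.9 and 54.8 CPM in the other group. Each of the 3 libraries labelled as overexpressing lay below all of WT, and the log2 fold change was -0.51 (SE 0.18, edgeR quasi-likelihood adjusted p = 0.0535). If this gene is CsubMADS1, the direction is opposite to the label. The name OX-labelled is therefore used for the second group throughout, and each direction below rests on the labels alone. Whether reads from a transgene would be counted at this gene was not tested. The adjusted p of COCSUDRAFT_67545 fell under 0.05 under 6 alternative settings, given in the closing section.

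Library totals ran from 3771499 to 5336375 counts, so that 3 counts stood for 0.588 to 0.758 CPM. OX-labelled replicate 3 stood apart from the other libraries on the second principal component of all genes (19.6% of variance). Of 39 tested genes for the antenna, photosystems and Rubisco small chain, the markers of a photosynthetic culture, 33 rose in the OX-labelled libraries and 0 fell. The 40 listed genes took 1.42% to 1.53% of WT counts and 3.24% to 3.98% of OX-labelled counts. The part of this difference in the results below was not tested, beyond the scaling alternatives.

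The 59 genes do not all belong to organellar ribosomes by name. Plastid or chloroplast stands in 8 names and mitochondrial in 3, and a further 6 are called 30S or 50S, the subunits of bacterial-type ribosomes. These 17 form the organellar class. Names of 2 genes carry the suffix P (L11P and L27P), a style used for bacterial-type proteins. Names of 8 genes follow the style of cytosolic ribosomes (L10e, L14b/L23e, L28e, L32e, L35Ae, L37, rpl36a and S28e). They were sorted by the letter after the number or by the number itself, which does not show the compartment. Another 24 give a number without a compartment, and 4 say "ribosomal protein" with no number. The remaining 4 are called ribosomal protein S5 domain 2-like, a protein fold also found in enzymes and chaperones, so the name does not place them in a ribosome. Of the 24 genes with a number only, 13 share that number with a separate gene whose name says cytosolic 80S, 60S or 40S, and 11 do not.

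All 59 genes passed the filter on low counts, and the fewest counts over all libraries were 234. Together they took 1.68%, 1.71% and 1.49% of the counts in the WT libraries by replicate number and 1.41%, 1.32% and 1.31% in the OX-labelled ones. Each share had a 95% exact (Clopper-Pearson) interval within 0.0122 percentage points, covering counting error only. The WT shares were all above the OX-labelled ones. After TMM scaling the summed levels overlapped, at 16693, 16795 and 14182.5 CPM in WT and 14754, 13991 and 12724 CPM in the OX-labelled libraries.

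Levels are compared between genes per kilobase of annotated gene, introns included, and ordered by the mean over all libraries. The highest level was that of COCSUDRAFT_22596, named only ribosomal protein, at 1161 ± 92.2 CPM per kb in WT and 1020.3 ± 90.7 CPM per kb in the OX-labelled libraries (SD, n = 3). It was followed by a fragment named chloroplastic S17, COCSUDRAFT_12125, at 633 ± 125 and 499.96 ± 52.3 CPM per kb. Its gene model spans 228 bases, so this value depends on a short model. Next came L14b/L23e, COCSUDRAFT_52401, named for a protein at the interface between subunits, at 599.9 ± 119.8 and 496 ± 48.8 CPM per kb. These 2 genes did not differ beyond their spread. S19, COCSUDRAFT_31273, had 467 ± 31.9 and 417 ± 30.9 CPM per kb, and L28e, COCSUDRAFT_67589, had 517 ± 116 and 291 ± 28.7 CPM per kb. At the low end stood S1, COCSUDRAFT_22962, with 6.41 ± 1.67 CPM per kb in WT and the S5 domain 2-like gene COCSUDRAFT_31580 with 8.72 ± 0.834 CPM per kb. The L15 fragment COCSUDRAFT_7993 had 10.5 ± 2.34 CPM per kb. The WT levels of the 59 genes thus spanned a factor of 181.

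**Figure D1:**
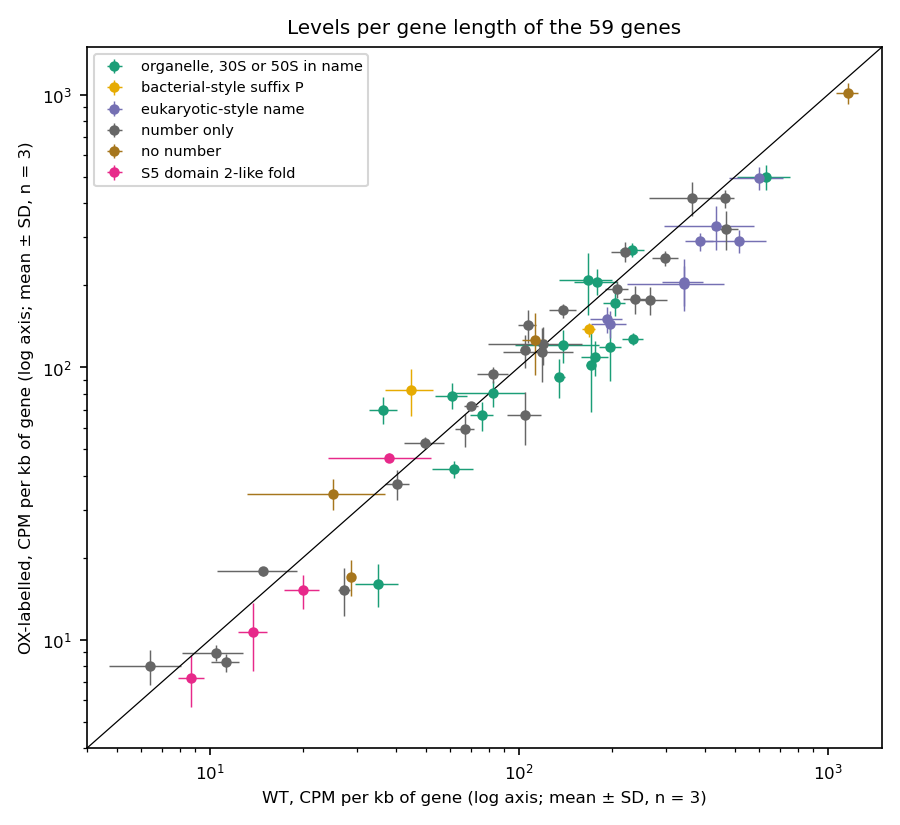
Mean level of each of the 59 genes in CPM per kilobase of gene in WT (x axis) and in the OX-labelled libraries (y axis), both on log axes, with bars of 1 SD over 3 libraries, colours for the name class and a line of equal level. All 8 genes with eukaryotic-style names (purple) lie below the line, and the gene at the top right is COCSUDRAFT_22596.

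By class, the median WT level was 168 CPM per kb for the organellar names, 364 for the eukaryotic-style names and 106 for the genes with a number only. It was 16.9 CPM per kb for the S5 domain 2-like genes, beside 14.3 over all counted genes. The 54 genes named as cytosolic had a median of 432 CPM per kb in WT. The number-only genes with a cytosolic namesake ranged from 14.9 to 467 CPM per kb and those without from 6.41 to 468. These ranges overlapped.

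Transcripts for 14 of the 59 genes were lower in the OX-labelled libraries, 2 were higher and 43 did not pass (edgeR quasi-likelihood test, Benjamini-Hochberg adjusted p under 0.05 over all 8575 tested genes). Of all tested genes, 24.6% were called, 15.6% as higher and 8.98% as lower. The share of the 59 genes was thus 3.39% higher and 23.7% lower. Their median log2 fold change was -0.22, with 39 genes below and 20 above 0, beside a median of -0.0028 over all tested genes. In bulk cultures, fewer cells with a transcript and less of it per cell cannot be told apart.

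Changes were small. The median size of the log2 fold change was 0.33 for these genes and 0.37 over all genes, and 1 gene reached a fitted change of 2-fold. The OX-labelled libraries lay wholly below WT for 21 of the 59 genes and wholly above for 5, where all tested genes gave 19.8% below and 23.1% above. Of the 43 genes that did not pass, 42 had a 95% interval of the fold change within 2-fold in both directions. The exception was the rare COCSUDRAFT_83526, named only ribosomal protein, with 7.19 ± 3.42 and 9.85 ± 1.25 CPM (SD, n = 3).

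The count of lower genes among the 59 varied with the library left out, as did the share over all genes, 8.98% with all 6 libraries. Without WT replicates 1, 2 and 3 in turn the count was 4, 5 and 12. All genes tested in those fits gave 3.63%, 4.80% and 4.46%. Without OX-labelled replicates 1, 2 and 3 the count was 9, 9 and 14, against 4.81%, 9.57% and 14.3%. The median log2 fold change of the 59 genes was -0.24, -0.22 and -0.27 without the WT replicates in turn. It was -0.26, -0.24 and -0.18 without the OX-labelled ones. Calls in either direction numbered 13 without WT replicate 3 (14.5% of all genes), and higher calls numbered 4 without OX-labelled replicate 3 (18.8%). With library size only as scaling, 2 were higher and 17 lower, beside 13.3% and 11.6% of all genes. A call held in each of the 6 leave-one-out fits for 5 of the 16 genes, namely chloroplastic S9 (COCSUDRAFT_66434), 50S L31 (COCSUDRAFT_57787), 50S L35 (COCSUDRAFT_32793), L1 (COCSUDRAFT_11270) and the unnumbered COCSUDRAFT_47615.

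**Figure D2:**
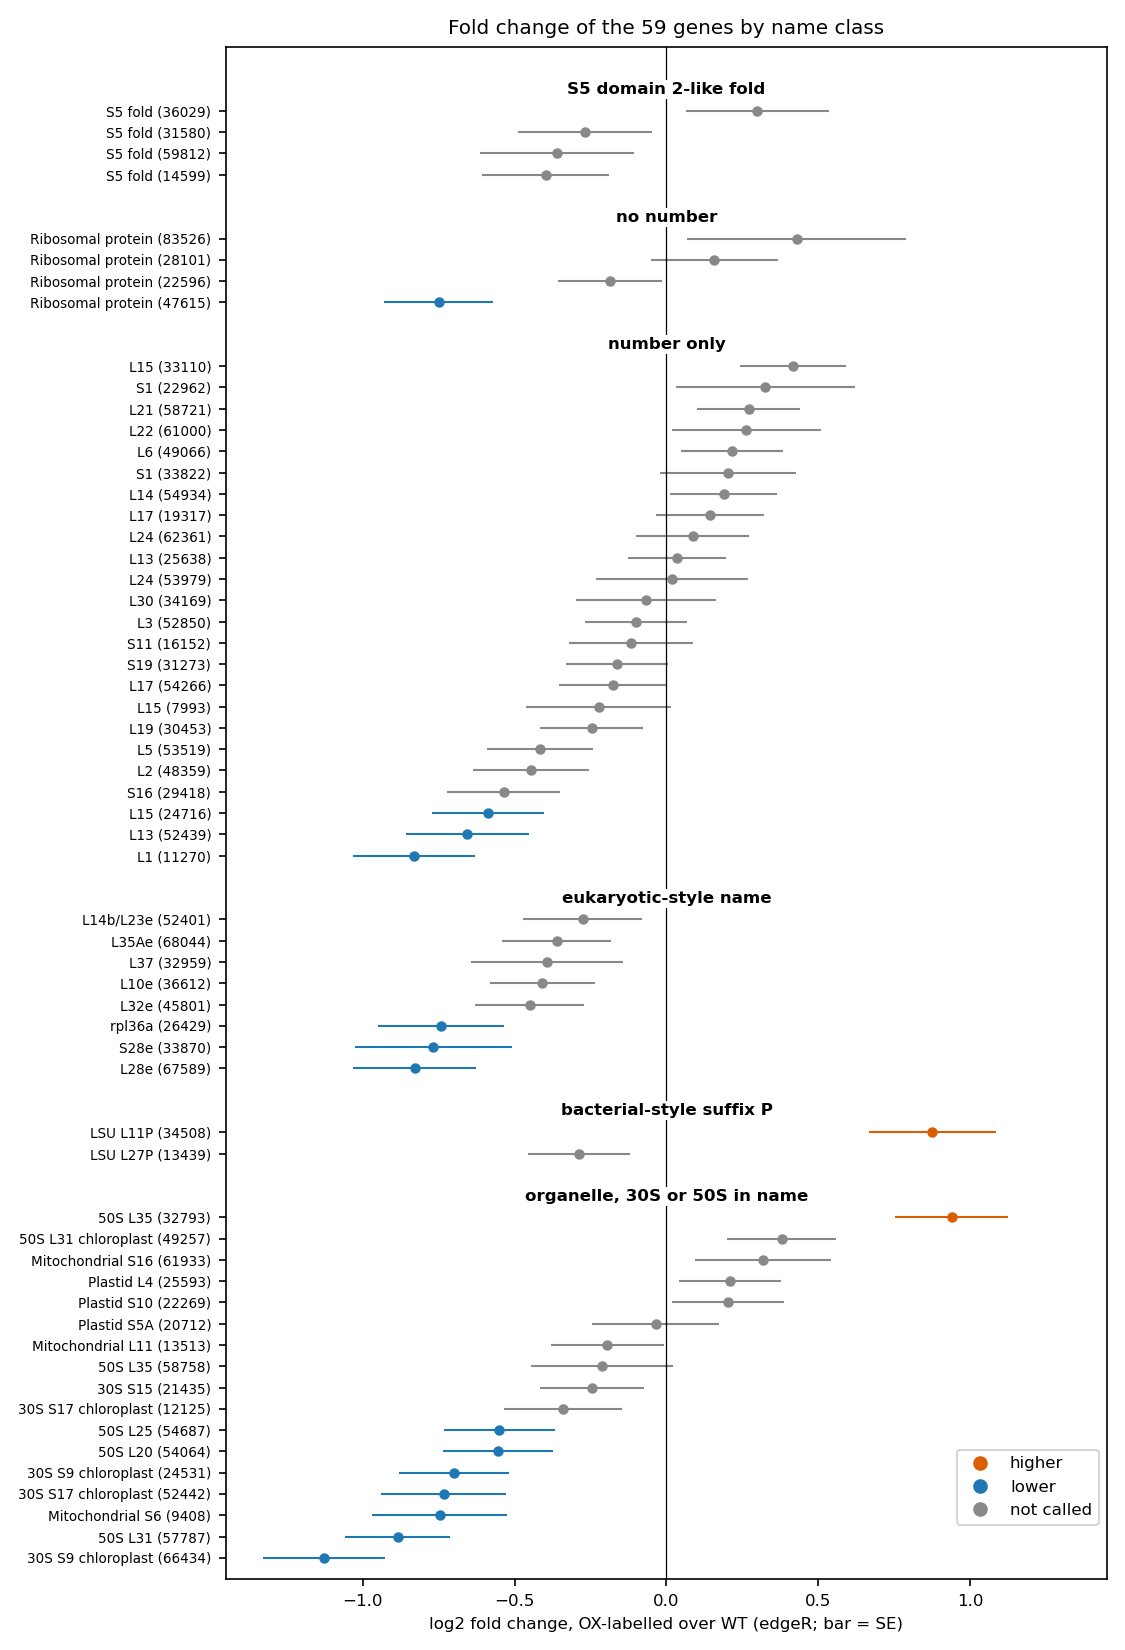
Log2 fold change of the OX-labelled libraries over WT for each of the 59 genes (x axis, edgeR, bars of 1 SE), grouped by name class, with locus numbers in parentheses and colours for genes called higher, lower or not called. The 8 eukaryotic-style names all lie below 0, while the organellar names run from -1.13 to 0.94.

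Among the 17 genes with organellar names, 7 were lower, 1 was higher and 9 did not pass, with a median log2 fold change of -0.25. The large-subunit members moved in both directions. One gene for 50S L35, COCSUDRAFT_32793, a small protein of bacterial-type large subunits, had 34.8, 41.9 and 35.6 CPM in WT and 69.8, 64.8 and 80.9 CPM in the OX-labelled libraries. Every OX-labelled library was above every WT library, and the gene rose 1.92-fold (log2 fold change 0.94, SE 0.19, edgeR adjusted p = 0.00403).

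A gene for 50S L31, COCSUDRAFT_57787, another protein of bacterial-type large subunits, had 73.0, 85.0 and 81.4 CPM in WT and 43.3, 45.3 and 41.0 CPM in the OX-labelled libraries. The OX-labelled libraries lay close together and well below WT (log2 fold change -0.88, SE 0.17, edgeR adjusted p = 0.00381). L20, COCSUDRAFT_54064, known in bacteria for its role in assembly of the large subunit, fell from 126 ± 5.08 to 85.4 ± 14.1 CPM (SD, n = 3, edgeR adjusted p = 0.0418). L25, COCSUDRAFT_54687, which binds 5S RNA in bacteria, fell from 103 ± 15.8 to 70.5 ± 4.98 CPM (SD, n = 3, edgeR adjusted p = 0.0453). Both calls were near the threshold. The L20 call was lost without any 1 of WT replicates 1 to 3 or OX-labelled replicate 2 (edgeR adjusted p from 0.0815 to 0.122) and with the replicate number as a block (0.0521). The L25 call was lost without WT replicates 1 or 2 or OX-labelled replicates 1 or 2 (edgeR adjusted p from 0.063 to 0.167) and with the block (0.0546).

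On the small subunit, both genes named chloroplastic S9, whose bacterial counterpart reaches the tRNA site, were lower. COCSUDRAFT_66434 had 95.5, 92.6 and 122 CPM in WT and 39.8, 45.9 and 56.3 CPM in the OX-labelled libraries. It had the lowest p of the 59 genes and was the one that reached 2-fold (log2 fold change -1.13, SE 0.20, edgeR adjusted p = 0.0021). COCSUDRAFT_24531 had 309, 271 and 253 CPM in WT and 197, 168 and 148 CPM in the OX-labelled libraries, again without overlap. Its log2 fold change was -0.70 (SE 0.18, edgeR adjusted p = 0.0155), with an adjusted p of 0.0712 without WT replicate 1.

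S17, an RNA-binding protein of the small subunit, is also named by a pair of genes. COCSUDRAFT_52442 had 301, 272 and 257 CPM in WT and 172, 204 and 122.6 CPM in the OX-labelled libraries, which lay below WT without overlap (log2 fold change -0.73, SE 0.20, edgeR adjusted p = 0.022). This call was lost without WT replicates 1 and 2 and OX-labelled replicate 1 (edgeR adjusted p = 0.0795, 0.0566 and 0.0583). The fragment COCSUDRAFT_12125 on the same scaffold had 114, 148 and 171 CPM in WT and 100.4, 119 and 122.6 CPM in the OX-labelled libraries, which overlapped (edgeR adjusted p = 0.219). Mitochondrial S6, COCSUDRAFT_9408, had 107, 100.4 and 102 CPM in WT and 47.2, 84.7 and 52.5 CPM in the OX-labelled libraries. OX-labelled replicate 2 was the one near WT, and the log2 fold change of -0.75 (edgeR SE 0.22, adjusted p = 0.0302) was -1.05 without it. The S6 call was lost without any 1 of the 3 WT libraries or OX-labelled replicate 1 (edgeR adjusted p from 0.0666 to 0.115).

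The other organellar names did not pass. The chloroplastic L31 gene COCSUDRAFT_49257 had 478, 459 and 379.6 CPM in WT and 622, 589.5 and 501 CPM in the OX-labelled libraries, which lay above WT without overlap (log2 fold change 0.38, SE 0.18, edgeR adjusted p = 0.143). Without OX-labelled replicate 3 it passed. Plastid L4, COCSUDRAFT_25593, which lines the exit tunnel of the ribosome, had 406 ± 35.5 CPM in WT and 469.7 ± 27.3 CPM in the OX-labelled libraries (SD, n = 3, edgeR adjusted p = 0.391). Plastid S10, COCSUDRAFT_22269, and mitochondrial S16, COCSUDRAFT_61933, had log2 fold changes of 0.20 (SE 0.18) and 0.32 (SE 0.22). Mitochondrial L11, COCSUDRAFT_13513, and 30S S15, COCSUDRAFT_21435, had log2 fold changes of -0.19 (SE 0.19) and -0.25 (SE 0.17). The 8 plastid names held 3 lower and 0 higher genes, the 3 mitochondrial names 1 lower, and the 6 names with 30S or 50S alone 3 lower and 1 higher. Both genes with the suffix P belong to the large subunit. L11P, COCSUDRAFT_34508, named for a protein at the base of the stalk that receives translation factors, had 104, 94.7 and 72.8 CPM in WT and 170.2, 131 and 197 CPM in the OX-labelled libraries. All OX-labelled values were above all WT values, a 1.83-fold rise (log2 fold change 0.87, SE 0.21, edgeR adjusted p = 0.0104), with an adjusted p of 0.071 without WT replicate 3. L27P, COCSUDRAFT_13439, had 75.4 ± 3.71 and 61.8 ± 3.60 CPM (SD, n = 3, edgeR adjusted p = 0.232).

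**Figure D3:**
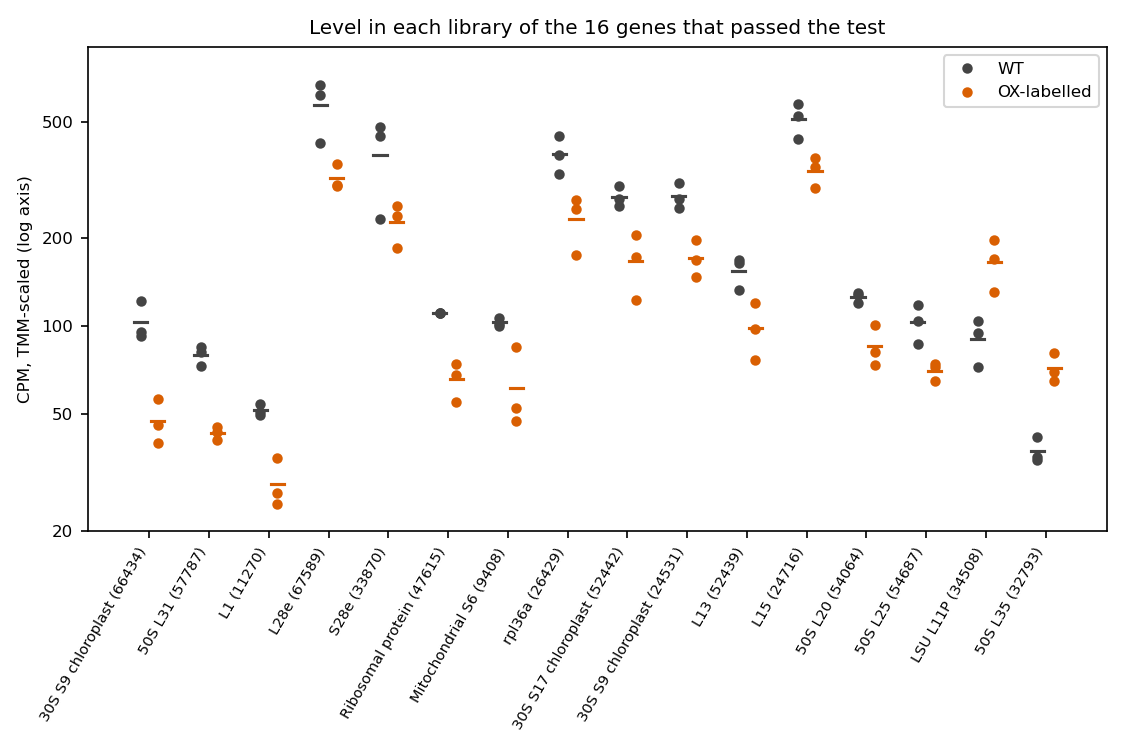
CPM (log axis) in each of the 6 libraries for the 16 genes that passed the test, ordered by fold change, with a bar at the mean of each group. The groups overlap for S28e, where WT replicate 3 at 232 CPM lies among the OX-labelled values, and for none of the other 15 genes.

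The 8 eukaryotic-style names all had negative log2 fold changes, from -0.83 to -0.28 with a median of -0.43, and 3 of them were called lower. L28e, COCSUDRAFT_67589, a protein of the eukaryotic large subunit, had 667, 617 and 424 CPM in WT and 301, 357 and 304 CPM in the OX-labelled libraries. The groups did not overlap, and the fitted difference was -0.83 on a log2 scale (edgeR SE 0.20, adjusted p = 0.012), with adjusted p of 0.0618 and 0.0502 without WT replicates 1 and 2. The gene named rpl36a, COCSUDRAFT_26429, for a protein near the tRNA exit site, fell from 388 ± 57.5 to 232 ± 49.7 CPM (SD, n = 3, edgeR adjusted p = 0.0217). Without WT replicates 1 and 2 its adjusted p was 0.0905 and 0.0589.

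S28e, COCSUDRAFT_33870, a small-subunit protein of eukaryotes and archaea, had 479, 447 and 232 CPM in WT and 257, 238 and 185 CPM in the OX-labelled libraries. WT replicate 3 lay below 2 of the OX-labelled libraries. The log2 fold change was -0.77 (SE 0.26, edgeR adjusted p = 0.0478), and -1.06 without WT replicate 3. The S28e call was lost without WT replicates 1 and 2 and OX-labelled replicates 1 and 2 (edgeR adjusted p from 0.0767 to 0.18) and in limma-voom (adjusted p = 0.0682). L32e, COCSUDRAFT_45801, had 274 ± 35.6 and 201 ± 23.4 CPM and L10e, COCSUDRAFT_36612, 979.6 ± 102 and 738 ± 56.9 CPM (SD, n = 3), with edgeR adjusted p of 0.0857 and 0.104. Neither overlapped between groups. L37, COCSUDRAFT_32959, with a zinc-finger in eukaryotes, had 632, 551 and 320.2 CPM in WT and 437, 405 and 303 CPM in the OX-labelled libraries, with overlap and an edgeR adjusted p of 0.268.

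Of the 24 genes with a number only, 3 were lower, 0 higher and 21 did not pass, with a median log2 fold change of -0.08. L1, COCSUDRAFT_11270, whose family forms the mobile stalk that moves used tRNA out, had 49.7, 54.3 and 50.8 CPM in WT and 26.9, 35.4 and 24.6 CPM in the OX-labelled libraries. Its groups were well apart (log2 fold change -0.83, SE 0.20, edgeR adjusted p = 0.0112). One of the L13 genes, COCSUDRAFT_52439, fell from 155 ± 19.5 to 98.3 ± 21.5 CPM, and one of the L15 genes, COCSUDRAFT_24716, from 511 ± 69.3 to 340.4 ± 39.2 CPM (SD, n = 3, edgeR adjusted p = 0.0345 and 0.036). The L13 call was lost without WT replicates 1 and 2 and OX-labelled replicate 2 (adjusted p from 0.0627 to 0.113). The L15 call was lost without those libraries and without OX-labelled replicate 1 (adjusted p from 0.0524 to 0.132). S16, COCSUDRAFT_29418, was just outside the threshold with 709, 678 and 586 CPM in WT and 513, 477 and 371 CPM in the OX-labelled libraries (log2 fold change -0.54, SE 0.19, edgeR adjusted p = 0.0541). It passed under 7 other settings and none of those that left out a library. L5, COCSUDRAFT_53519, and L2, COCSUDRAFT_48359, which in bacteria bind 5S RNA and the catalytic centre, had log2 fold changes of -0.42 (SE 0.17) and -0.45 (SE 0.19) without overlap and without passing. Of these 24 genes, 1 of the 13 with a cytosolic namesake and 2 of the 11 without one were lower.

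Of the 4 genes with no number, COCSUDRAFT_47615 was lower. It had 110.6, 110.5 and 111 CPM in WT and 54.9, 68.3 and 74.4 CPM in the OX-labelled libraries. WT was tight and wholly above (log2 fold change -0.75, SE 0.18, edgeR adjusted p = 0.0104). The most abundant gene, COCSUDRAFT_22596, had a log2 fold change of -0.19 (SE 0.17, 95% interval -0.56 to 0.19). None of the 4 S5 domain 2-like genes passed. One of them, COCSUDRAFT_36029, had 44.8, 43.4 and 79.4 CPM in WT, the widest relative spread among genes with at least 10 CPM. WT replicate 3 was its high library.

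Several proteins are named by more than 1 gene, and the count ratio of such genes within a library does not depend on scaling between libraries. The 24 pairs compared were genes of the same product name, and the L11 and L31 pairs, which were added after values were seen. They include all combinations of the 4 unnumbered genes and of the 4 S5 domain 2-like genes. The S16 genes COCSUDRAFT_29418 and COCSUDRAFT_61933 were not paired. Of the 24 pairs, 9 had ratios that did not overlap between WT and OX-labelled libraries, 6 of them numbered and 3 involving COCSUDRAFT_47615. Each of those had an exact two-sided permutation p of 0.1, the smallest that 3 against 3 libraries can give. Adjusted over the pairs, this permutation p was 0.267, so none passed. The share of such ratios among other gene pairs was not computed. Among single tested genes, OX-labelled levels lay wholly above WT for 23.1% and wholly below for 19.8%. For L35, the ratio of COCSUDRAFT_32793 to COCSUDRAFT_58758 was 0.235, 0.309 and 0.452 in WT and 0.639, 0.561 and 0.917 in the OX-labelled libraries. The second L35 gene had 121 ± 36.7 and 104 ± 14.3 CPM (SD, n = 3, edgeR adjusted p = 0.542), so the rarer gene of the pair came nearer to the other. For L31, the ratio of COCSUDRAFT_49257 to COCSUDRAFT_57787 was 6.56, 5.40 and 4.66 in WT and 14.4, 13.0 and 12.2 in the OX-labelled libraries.

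The L11, L13 and L15 genes showed the same kind of separation. The ratio of mitochondrial L11 (COCSUDRAFT_13513) to L11P (COCSUDRAFT_34508) was 0.469, 0.60 and 0.677 in WT and 0.229, 0.357 and 0.252 in the OX-labelled libraries. For L13, COCSUDRAFT_25638 over COCSUDRAFT_52439, it was 1.26, 1.35 and 1.51 in WT and 1.85, 2.23 and 2.73 in the OX-labelled libraries. For L15, COCSUDRAFT_24716 over COCSUDRAFT_33110, it went from 2.67, 2.33 and 2.22 to 1.14, 1.37 and 1.11, near parity. The L15 gene COCSUDRAFT_33110 itself had 215, 225 and 197 CPM in WT and 328, 254 and 268 CPM in the OX-labelled libraries (log2 fold change 0.42, SE 0.17, edgeR adjusted p = 0.10), and passed without OX-labelled replicate 3. By contrast, the ratios of both S9 genes, both S17 genes, both L17 genes, both L24 genes and both S1 genes overlapped between groups. The sources used here do not say how reads matching 2 similar genes were counted, so values of genes with a shared name are uncertain to that extent.

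**Figure D4:**
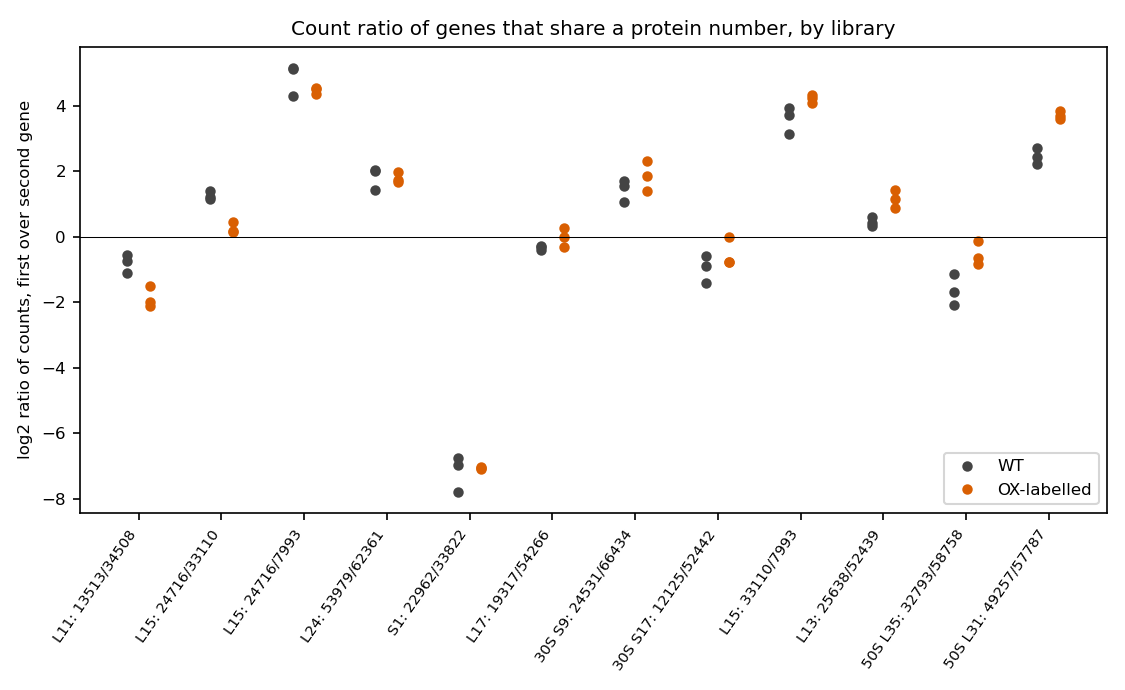
Log2 ratio of the counts of 2 genes that share a protein number (y axis) in each WT and OX-labelled library, for the 12 numbered pairs that were compared, ordered by the difference between groups. The S16 genes COCSUDRAFT_29418 and COCSUDRAFT_61933 were not paired. WT and OX-labelled points are apart for the pairs named L11, L13, L31 and L35 and for 2 of the 3 L15 pairs.

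The 59 genes lie on 22 scaffolds of the RefSeq gene table, which was used for neighbourhood and for the gene lengths above. For each, the median log2 fold change of the 10 tested genes on either side was taken, or fewer at a scaffold end. It was at least 0.5 for 6 genes (10.2%) and at most -0.5 for 1 gene, beside 5.62% and 0.828% of all tested genes. The 50S L35 gene COCSUDRAFT_32793, which was higher, had neighbours with a median of 0.84, of which 11 of 20 were called higher and 0 lower. Around mitochondrial S16 (COCSUDRAFT_61933) the median was 1.03 with 17 neighbours higher, while the gene itself had a log2 fold change of 0.32 and did not pass. Around the S1 gene COCSUDRAFT_22962 and the S5 domain 2-like gene COCSUDRAFT_36029 it was 0.98 and 0.91.

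At the other end, the chloroplastic S9 gene COCSUDRAFT_66434 had neighbours with a median of -0.57, of which 8 of 20 were called lower and 2 higher. The neighbours of L11P (COCSUDRAFT_34508) had a median of 0.36 and those of the lower 50S L31 gene COCSUDRAFT_57787 a median of 0.01. The lower genes L28e (COCSUDRAFT_67589) and COCSUDRAFT_47615 had neighbours with medians above 0, at 0.36 and 0.32. The part of the neighbourhood in the calls for L35 and S9 was not tested.

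**Figure D5:**
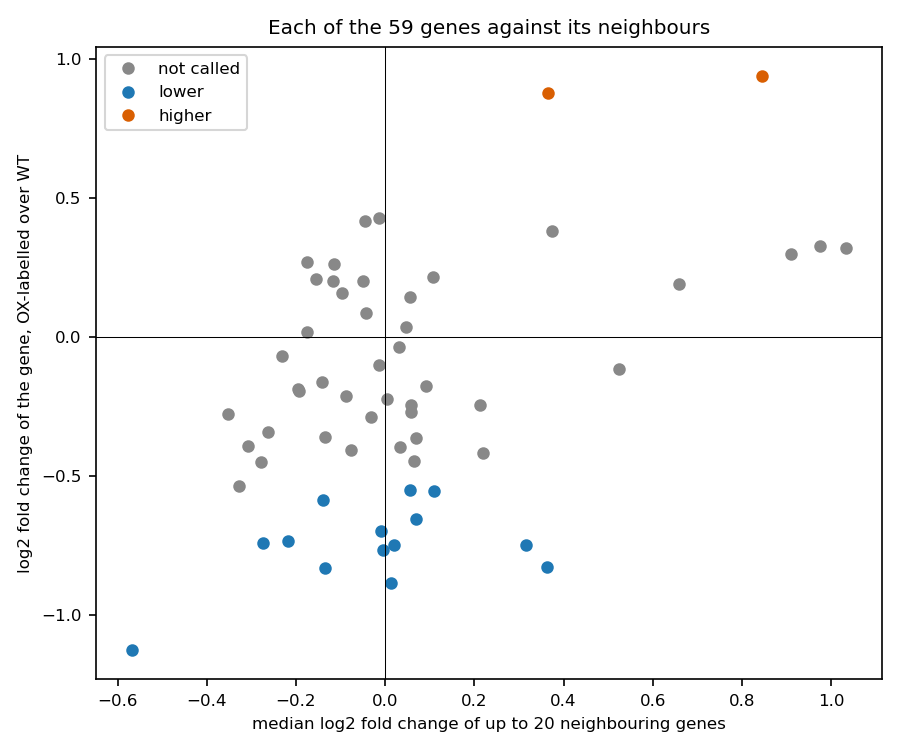
Log2 fold change of each of the 59 genes (y axis) against the median log2 fold change of up to 20 neighbouring tested genes (x axis), coloured by call. The L35 gene COCSUDRAFT_32793 sits at the top right, the S9 gene COCSUDRAFT_66434 at the bottom left, and most lower genes have neighbours near 0.

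WT replicate 3 held the lowest WT level for 32 of the 59 genes (54.2%), against 32.8% of all tested genes, and for 7 of the 8 eukaryotic-style names. OX-labelled replicate 3 held the lowest OX-labelled level for 34 of the 59 (57.6%), against 41.0% of all tested genes. In WT, several wide spreads came with a low replicate 3. L24, COCSUDRAFT_53979, had 224, 228 and 115 CPM in WT, and the abundant S1 gene COCSUDRAFT_33822, named for a protein that binds mRNA in bacteria, had 1326, 1251 and 766 CPM. Every OX-labelled library was above WT replicate 3 for both genes, with means of 191 ± 30.9 and 1282 ± 183 CPM (SD, n = 3), and neither passed. In the OX-labelled group the largest relative spreads among genes with at least 10 CPM were those of mitochondrial S6 (33.0% of the mean), the S5 domain 2-like gene COCSUDRAFT_59812 (SD 4.20 CPM) and mitochondrial S16 (25.8%). The median spread over the 59 genes was 10.8% in WT and 11.8% in the OX-labelled libraries, below the medians of 13.5% and 20.97% over all genes. The 59 genes were also more abundant, with a median WT level of 155 CPM against 41.3 CPM over all genes. The part of level in this lower spread was not tested.

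The other genes of translation are given for comparison. Of 53 tested genes named as cytosolic ribosomal proteins, 22 were lower, 0 higher and 31 did not pass, with a median log2 fold change of -0.55. Without WT replicates 1 and 2 in turn, 11 and 7 of them were lower. Their share of counts was 4.26% to 4.69% in WT and 2.97% to 3.10% in the OX-labelled libraries. The list of organellar and bacterial-type translation factors was drawn by name. It includes COCSUDRAFT_25870, named both eukaryotic translation initiation factor 5B and IF-2. The list held 1 higher and 1 lower gene among 14, with a median of -0.04. The lower one was an elongation factor Tu gene, COCSUDRAFT_36392, with a log2 fold change of -2.76, and the higher one the chloroplastic elongation factor 4 homolog COCSUDRAFT_35985, which rose from 44.4 to 92.0 CPM. Of 24 genes for ribosome biogenesis and rRNA processing, 1 was higher and 2 were lower. The median over these 24 was -0.29, with 21 genes below 0 and 3 above. Among the lower ones was a 23S ribosomal RNA methyltransferase, COCSUDRAFT_53206, which fell from 84.9 to 42.4 CPM. Of 37 tRNA ligase genes, 1 was higher and 7 lower, with a median of -0.22. None of these differences between lists was tested.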

How the data were processed

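Trizol-extracted total RNA was made into directional libraries, per the labels' protocols. FastQC, Trim Galore, HISAT and HTSeq are named in the submitters' processing notes. No source used here gives the genome build or the strand setting, so reads of antisense or overlapping genes may be mixed. Each deposited file holds the authors' unnormalized counts by gene, with product names. All 9490 genes matched the RefSeq gene table (assembly Coccomyxa subellipsoidae v2.0), which gave gene length and order; protein sequences were not used here.

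The counts of all 8575 genes kept by filterByExpr were fitted in edgeR 4.0.16 (R 4.3.3) with TMM scaling and robust quasi-likelihood F tests of the group term. Two-sided p-values were adjusted by Benjamini-Hochberg, and an adjusted p under 0.05 counted as a call. The SE was derived from the log2 fold change and F. The biological coefficient of variation was 19.8%. Alternatives were other scalings and filters, DESeq2 1.42.0, limma-voom (limma 3.58.1), no robust step, a replicate block, a stricter threshold and each library left out. In counts simulated for this comparison (8556 genes), 72 of 100 genes with a 2-fold change and 100 of 100 with a 4-fold change were found. Of the calls, 7.03% were false. The simulation gave every gene the same biological variation in both groups. In the data the median spread was 13.5% in WT and 20.97% in the OX-labelled libraries, so these rates need not hold there. Libraries of a group differed beyond sampling noise (chi-square per degree of freedom at least 6.97).

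Members and gene lists were chosen with earlier results of these data known. The genes named are the MADS-box gene, up to 12 called genes in each direction by lowest p, extremes of level and spread, up to 15 organellar names by lowest p, the 5 uncalled genes of lowest p and genes sharing a name. Other named genes, the classes for the suffix P and the S5 domain, cytosolic namesakes, the L11 and L31 pairs and neighbour medians were chosen after values were seen.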

Additional observations from a re-analysis of the deposited data

How the results depend on the processing

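The median log2 fold change of the 59 genes moved by less than its spread over the OX-labelled libraries (SD 0.0968) under the alternatives run. When a library was left out, the lower genes numbered 4 to 14 and the higher genes 1 to 4, while over all genes lower calls ran from 313 to 1232 and higher calls from 737 to 1626. At an edgeR adjusted p under 0.01, 1 of the 59 was higher and 2 lower, and over all genes 760 and 205. Leaving out the 4 S5 domain 2-like genes, chosen after seeing the data, changed neither count. The MADS-box gene passed under 3 scalings, 2 filters and DESeq2, with an adjusted p of 0.0294 with library size only.

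Some genes that did not pass changed sign, and the cause was not tested. When a library was left out, log2 fold changes ran from -0.27 to 0.16 for L24 (COCSUDRAFT_53979), -0.061 to 0.15 for L24 (COCSUDRAFT_62361), -0.037 to 0.058 for L13 (COCSUDRAFT_25638), -0.042 to 0.31 for S1 (COCSUDRAFT_33822), -0.014 to 0.34 for COCSUDRAFT_28101, -0.30 to 0.066 for L30 (COCSUDRAFT_34169) and -0.22 to 0.16 for plastid S5A (COCSUDRAFT_20712). COCSUDRAFT_53979 gave -0.048 with library size only, -0.0097 with upper quartile scaling, -0.0148 without a filter and -0.0154 with a 1 CPM filter. COCSUDRAFT_25638 gave -0.033 with library size only.

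The replicate numbers did not pair the libraries: deviations of same-numbered libraries correlated at -0.16, 0.15 and 0.06 over 8575 genes, and not every library correlated best with its own number. With the replicate block 2 of the 59 were higher and 13 lower, and over all genes 1298 and 801. Depth limits genes such as COCSUDRAFT_83526, with 13 to 48 counts a library.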

Other observations

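A further 3 genes carry a ribosomal domain in their name without the words used to choose the 59, and they were looked at after the results were seen. The Ribosomal_L30 domain gene COCSUDRAFT_54236 had 537, 585 and 509 CPM in WT and 334, 438 and 255 CPM in the OX-labelled libraries, all of them below WT (log2 fold change -0.67, SE 0.21, edgeR adjusted p = 0.0371). This call was lost without any 1 of the 3 WT libraries or OX-labelled replicate 1 (edgeR adjusted p from 0.0661 to 0.109). The Ribosomal_S13_N domain gene COCSUDRAFT_21671 had 693 ± 15.2 and 488 ± 62.0 CPM (SD, n = 3), without overlap and just outside the threshold (edgeR adjusted p = 0.0507). The Ribosomal_L9_C domain gene COCSUDRAFT_17670 lay in the other direction, with 200.5 ± 36.5 CPM in WT and 285 ± 46.8 CPM in the OX-labelled libraries (SD, n = 3, edgeR adjusted p = 0.0832).

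Among the tRNA ligases, which charge tRNA with amino acids, 2 genes named glutamyl-tRNA synthetase were called in opposite directions. COCSUDRAFT_12396 rose from 16.9 ± 1.75 to 54.0 ± 9.86 CPM and COCSUDRAFT_47622 fell from 206 ± 15.6 to 113 ± 37.4 CPM (SD, n = 3, edgeR adjusted p = 0.000342 and 0.0207). The COCSUDRAFT_47622 call was lost without WT replicates 1 and 3 (edgeR adjusted p = 0.0753 and 0.0551). The ligase for asparagine, COCSUDRAFT_15475, fell from 413 ± 22.5 to 164 ± 10.3 CPM (SD, n = 3, edgeR adjusted p = 0.000296).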
